A study of Mus musculus with 10 samples.

Results

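The genes described here encode the Ndc80 complex (Spc24, Spc25, Ndc80 and Nuf2), the Mis12 complex (Mis12, Dsn1, Nsl1 and Pmf1) and the associated protein Zwint, which together make up 9 of the 38803 gene symbols in the deposited lists. Spc24 was chosen by its measured FPKM levels, which differed between the genotypes in these same libraries. The other 8 genes, called its partners here, were taken because their proteins work beside it at the outer kinetochore. The Spc24 difference between genotypes is therefore a description and carries no test. All 9 genes lay above 1 FPKM, a unit that corrects fragment counts for transcript length and library size, in each of the 10 libraries and passed the filter on low values.

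Total RNA depleted of ribosomal RNA was sequenced from the dorsal telencephalon, the part of the embryonic forebrain from which the cerebral cortex forms, at embryonic day 12. The 5 control libraries had the genotype Rnu11WT/Flx::Emx1-cre+/- and the 5 mutant libraries Rnu11Flx/Flx::Emx1-Cre+/-, all on a mixed C57/Bl6 - 129 SvJ background. Controls thus carried the Cre driver and 1 floxed copy of Rnu11 as well, and no library with both copies intact was analysed here. Emx1-Cre acts in dorsal telencephalic progenitors and their descendants, so blood, vessel, meningeal and microglial cells in the dissected tissue keep their Rnu11 genes. The labels do not tie libraries to individual embryos. What p-values measure here is the spread among libraries, which may be technical. In such bulk tissue, fewer cells of a type and less RNA per cell cannot be told apart.

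The kinetochore is the protein assembly on each centromere that attaches chromosomes to the mitotic spindle. The Ndc80 complex is a rod: Ndc80 and Nuf2 hold the microtubule at its outer end, and Spc24 and Spc25 form the inner end that docks onto the Mis12 complex. The Mis12 complex and its companion Knl1 sit on the inner kinetochore, and Zwint binds Knl1. In the early cortex these proteins serve the divisions of radial glia and intermediate progenitors. Rnu11 encodes the U11 small nuclear RNA of the minor spliceosome, which pairs with the 5′ end of minor introns. Such introns typically start with ATATCCTT or GTATCCTT, and near their 3′ end they hold a branch point stretch such as CCTTAAC, with which the U12 RNA pairs.

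Spc24 lies on chromosome 9 from 21755442 to 21760303 on the minus strand (GRCm38, ENSMUSG00000074476.6), and no other annotated gene overlaps it. Its main annotated transcript, Spc24-201, has 5 exons, all of them partly or wholly coding, and 603 coding bases. No genome sequence was used here, but GENCODE M21 holds Spc24 transcripts that keep introns 2 and 4 in their exons, so both introns could be read in full. They are shown because each starts with the letters of a minor intron, and intron 3, which lies between them, is shown for comparison. Sequences run 5′ to 3′ on the Spc24 strand. Capitals mark the first 8 bases where they match a minor-type start (the first 2 bases otherwise), a CCTTAAC stretch in the last 40 bases, and the last 2 bases.
Spc24 intron 2, chr9:21757395-21757684, between exons 2 and 3: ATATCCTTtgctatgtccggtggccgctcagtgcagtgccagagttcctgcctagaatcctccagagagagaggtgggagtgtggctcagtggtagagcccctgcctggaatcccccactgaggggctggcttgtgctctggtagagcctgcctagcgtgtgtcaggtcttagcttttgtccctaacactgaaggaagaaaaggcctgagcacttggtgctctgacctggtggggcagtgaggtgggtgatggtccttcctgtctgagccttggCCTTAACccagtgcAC
Spc24 intron 3, chr9:21757194-21757289, between exons 3 and 4: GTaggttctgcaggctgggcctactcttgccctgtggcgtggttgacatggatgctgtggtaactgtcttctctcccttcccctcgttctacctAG
Spc24 intron 4, chr9:21756296-21757116, first 60 bases: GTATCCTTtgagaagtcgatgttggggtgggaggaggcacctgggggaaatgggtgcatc
Spc24 intron 4, last 60 bases: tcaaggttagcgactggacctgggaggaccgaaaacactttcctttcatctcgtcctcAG

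Intron 2 is 290 bases long, starts with ATATCCTT, ends in AC and has CCTTAAC starting 16 bases before its end. Intron 4 is 821 bases long, starts with GTATCCTT, ends in AG and has no CCTTAAC in its last 40 bases. Intron 3, of 96 bases, starts and ends with the GT and AG of ordinary introns. Of 5 distinct annotated intron starts of Spc24, 4 could be read this way and 2 matched. Among 32713 intron starts of protein-coding genes that other transcripts of the gene make readable, 0.138% read ATATCCTT and 0.345% GTATCCTT. Among 26555 readable intron ends, 0.233% ended in AC, 0.410% held CCTTAAC in their last 40 bases and 0.0452% did both. The letters were searched on the transcribed strand, and introns that no transcript retains were not read, so these shares describe a selected part of all introns. Of the 71 distinct intron starts annotated in the 8 partners 18 could be read, none of them in Nsl1, and 0 of the 18 had these letters. The remaining starts were not read. On GRCm38 the partners of the Ndc80 complex lie at chr2:69193895-69206194 (Spc25), chr17:71496100-71526857 (Ndc80) and chr1:169497934-169531464 (Nuf2), all on the minus strand. The Mis12 complex genes lie at chr11:71019611-71027371 (Mis12, plus strand), chr2:156995265-157007154 (Dsn1, minus), chr1:191063012-191086474 (Nsl1, plus) and chr3:88394143-88410331 (Pmf1, minus), and Zwint at chr10:72654845-72674964 on the plus strand.

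**Figure D1:**
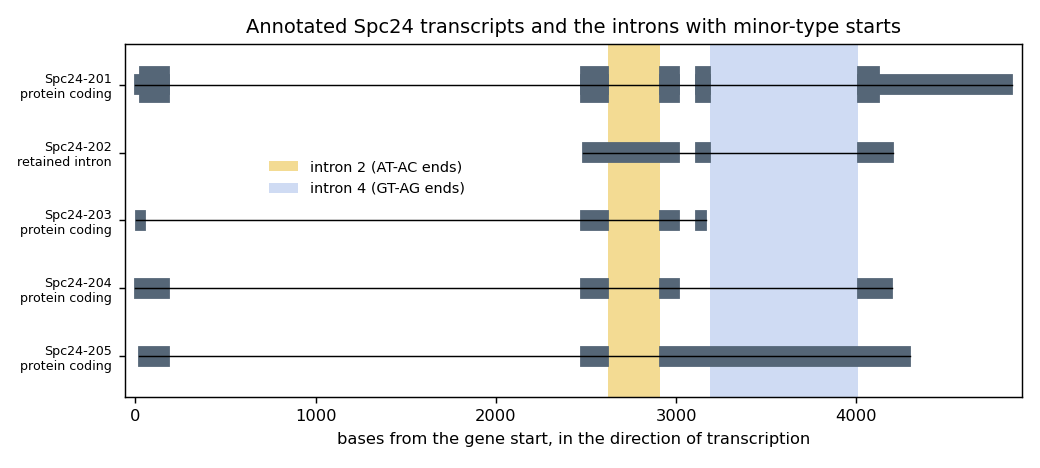
The 5 annotated Spc24 transcripts (GENCODE M21), drawn to scale by distance in bases from the gene start; boxes are exons, taller boxes the coding part of Spc24-201, and lines introns. The shaded spans are intron 2, kept only in Spc24-202, and intron 4, kept only in Spc24-205.

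The annotation gives alternative routes across both introns. Intron 2 is spliced in 4 of the 5 transcripts and kept in Spc24-202, which is classed as a retained intron. Intron 4 is spliced as such in Spc24-201 and Spc24-202 and kept in Spc24-205. Spc24-204 joins exon 3 directly to exon 5, and so uses the start of intron 3 and the end of intron 4. The deposited values hold 1 number per gene symbol, so spliced and unspliced Spc24 RNA cannot be told apart in them.

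A rough depth, read off the spacing of low values, lay between 9680000 and 20900000 fragments per library. On that estimate Spc24 rested on at least 164 fragments per kilobase of transcript (mutant 3), and the fewest among the 9 genes were about 44.1, for Nsl1 in control 1. Rnu11 lay between 1913 and 2817 FPKM in controls and between 473 and 1421 FPKM in mutants, where it averaged 39.1% of the control level. The libraries also differed in Rnu12, the U12 RNA, across both genotypes. It stood in control 5 and mutants 4 and 5 (the second set) at 487 to 688 FPKM, and in the other 7 libraries (the first set) at 5.91 to 33.8 FPKM. Rnu11 in mutants differed between these sets too, at 473 to 712 FPKM or 24.7% of controls in the first and 1344 to 1421 FPKM or 61.0% of control 5 in the second. In 15.5% of tested genes each library of the second set lay above every library of the first, and in 6.28% below. All 8 dorsal telencephalon progenitor markers were measured above the filter, with a summed level of 169 to 247 FPKM in controls and 186 to 232 FPKM in mutants.

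Spc24, chosen for this, was lower in each of the 5 mutants than in any control, and the levels of its 8 partners overlapped between the genotypes. Tests used limma on log2(FPKM + 1) across 13522 genes, with p-values adjusted over all of them by the Benjamini-Hochberg method and a threshold of 0.05. Of all tested genes 0.155% passed, 0.0666% as lower and 0.0887% as higher in mutants. No call is read for Spc24, on whose difference the choice of genes rests. Of the 8 partners 0 passed, and 1, Zwint, had an unadjusted p under 0.05, as did 8.76% of all tested genes. The median log2 difference of the partners was 0.10, beside 0.11 for all tested genes.

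Spc24 stood at 33.0, 33.1, 27.2, 33.6 and 35.2 FPKM in controls 1 to 5 and at 11.05, 12.98, 12.90, 14.16 and 12.95 FPKM in mutants 1 to 5. The highest mutant lay well under the lowest control, control 3, and the mutants were close to each other. The mean was 32.4 ± 3.06 FPKM in controls and 12.8 ± 1.12 FPKM in mutants (SD, n = 5 per group), 39.5% of the control level. On the log2(FPKM + 1) scale the difference was -1.28 (SE 0.10, 95% interval -1.50 to -1.05), and 22 of the 13522 tested genes had a lower one. Because Spc24 was chosen on this difference, its interval describes the spread among libraries and is no test. In 0.377% of tested genes every mutant lay under every control, and in 1.52% above. Spc24 differed little between the library sets, at 31.8 FPKM in the first and 35.2 FPKM in the second for controls, and 12.3 and 13.6 FPKM for mutants.

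**Figure D2:**
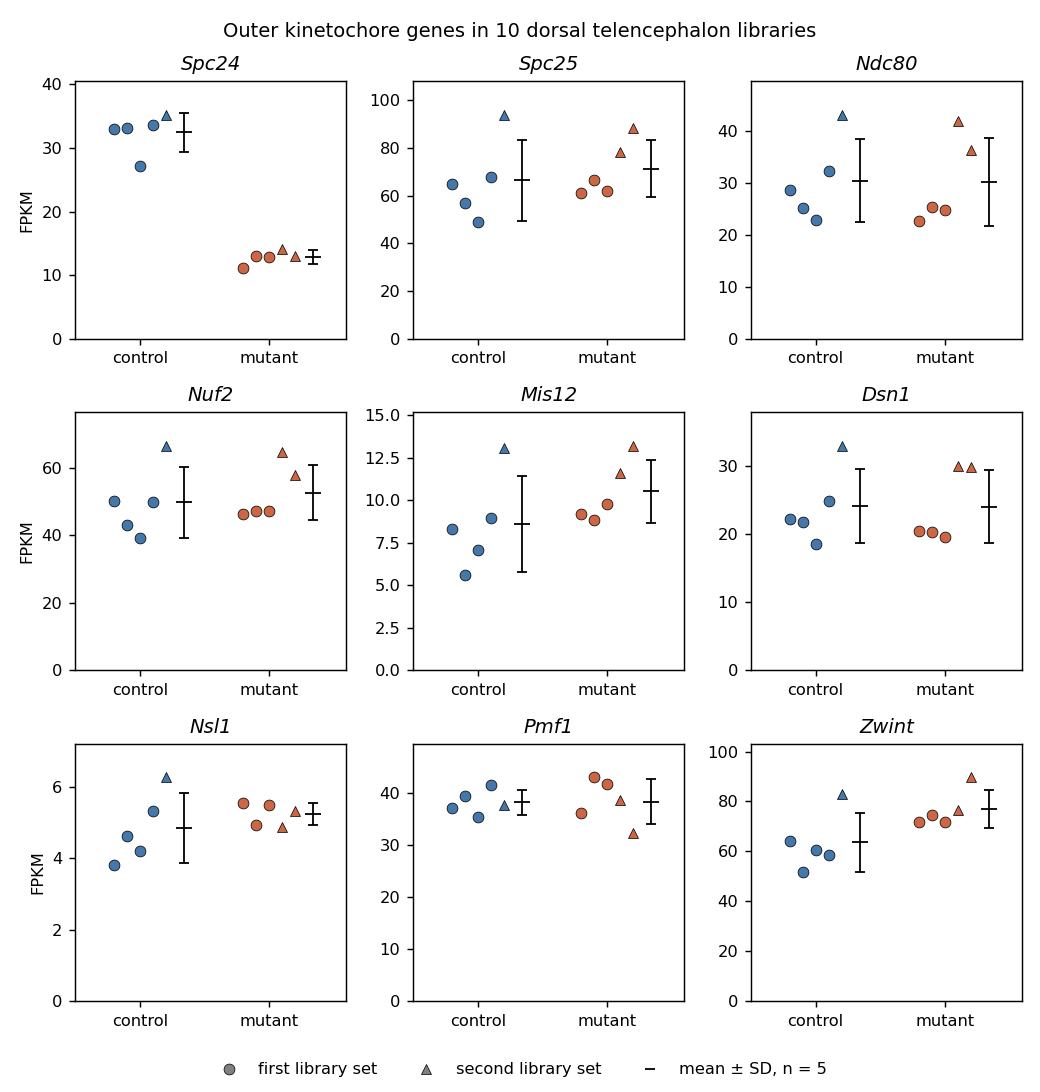
Level in FPKM of each of the 9 genes in the 5 control and 5 mutant libraries; each point is a library, circles are the first and triangles the second library set, and bars give the mean ± SD. Spc24 is the gene whose groups do not overlap, with mutants at 11.05 to 14.2 and controls at 27.2 to 35.2 FPKM.

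Spc25, which pairs with Spc24 in the inner end of the rod, lay at 64.8, 56.8, 49.1, 67.9 and 94.0 FPKM in controls 1 to 5 and at 61.1, 66.7, 62.1, 78.4 and 88.6 FPKM in mutants 1 to 5. The 3 highest values were those of the second library set, in both genotypes. The log2 difference was 0.12 (SE 0.17, 95% interval -0.25 to 0.49, limma, adjusted p = 0.849).

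Ndc80, whose protein carries the microtubule-binding head, lay at 28.6, 25.1, 22.9, 32.3 and 43.2 FPKM in controls and at 22.7, 25.3, 24.7, 42.02 and 36.4 FPKM in mutants, each in the order of the library numbers. The groups spanned nearly the same range, and control 5, mutant 4 and mutant 5 were again highest. The log2 difference was -0.02 (SE 0.20, 95% interval -0.45 to 0.42, adjusted p = 0.988). Nuf2, the partner of Ndc80 in that head, lay between 39.3 and 66.6 FPKM in controls (median 49.99) and between 46.3 and 64.9 FPKM in mutants (median 47.4), with a log2 difference of 0.09 (SE 0.15, adjusted p = 0.872). For Spc25, Ndc80 and Nuf2 the interval excludes a fall as large as that of Spc24, and smaller differences in either direction remain within it.

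The 4 transcripts of the Ndc80 complex therefore stood in other proportions in mutants. FPKM is a level per length, so ratios between genes can be formed within a library. The ratio of Spc24 to Spc25 was 0.510, 0.583, 0.554, 0.495 and 0.375 in controls 1 to 5 and 0.181, 0.195, 0.208, 0.181 and 0.146 in mutants 1 to 5. The groups did not overlap, with a mean of 0.503 ± 0.0799 for controls against 0.182 ± 0.0229 for mutants (SD, n = 5). Spc24 over Ndc80 went from 1.10 ± 0.188 to 0.443 ± 0.0893, and Spc24 over Nuf2 from 0.664 ± 0.0872 to 0.245 ± 0.0268. These ratios rest on the Spc24 values that chose the gene and are not tested. Between the other 3 genes the ratios overlapped between the genotypes over all 10 libraries, and 2 of the 3 did not within the first set. Spc25 over Ndc80 was 2.19 ± 0.0703 for controls against 2.43 ± 0.331 for mutants, with 4 of the 5 mutants above every control and mutant 4, at 1.87, below them all. In the first set it ran from 2.10 to 2.26 in controls and from 2.51 to 2.70 in mutants. Nuf2 over Ndc80 was 1.66 ± 0.102 for controls against 1.79 ± 0.214 for mutants. In the first set it ran from 1.55 to 1.76 in controls and from 1.87 to 2.04 in mutants. In the second set control 5 lay at 1.54 and mutants 4 and 5 at 1.54 and 1.59. Spc25 over Nuf2 was 1.33 ± 0.0621 and 1.36 ± 0.119. These 3 ratios were not tested. The 2 that separate in the first set share Ndc80 as the denominator, so they are not separate observations. The share of gene ratios that separate in this way was not worked out. Within each genotype, the second library set had the lowest ratio of Spc24 to Ndc80, at 0.816 in control 5 and 0.337 and 0.356 in mutants 4 and 5.

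**Figure D3:**
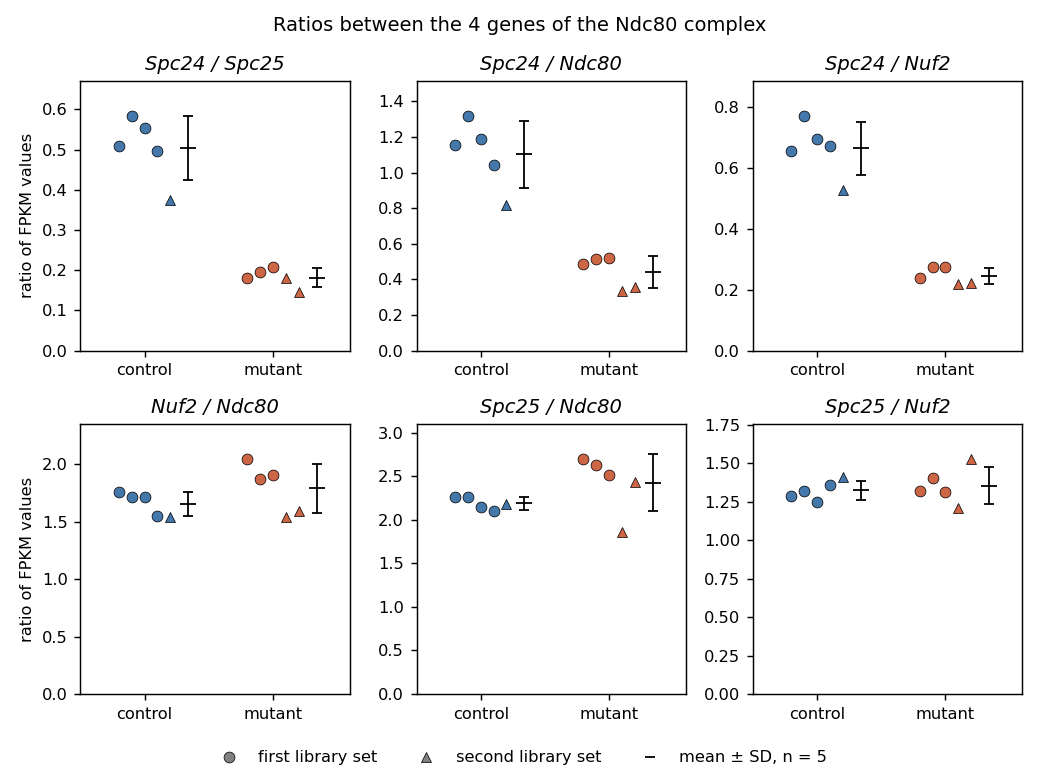
Ratios of FPKM values between the 4 genes of the Ndc80 complex in each library, by genotype, with circles for the first and triangles for the second library set and bars for the mean ± SD. The upper row, with Spc24 in the numerator, separates the genotypes; in the lower row, without Spc24, the genotypes overlap over all libraries, and for Spc25 over Ndc80 and Nuf2 over Ndc80 the circles of the first set do not.

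The Mis12 complex, to which the inner end of the rod binds, showed no call among its 4 genes. Mis12 lay at 8.30, 5.60, 7.08, 8.98 and 13.1 FPKM in controls and at 9.18, 8.86, 9.78, 11.6 and 13.2 FPKM in mutants, with a log2 difference of 0.30 (SE 0.19, 95% interval -0.11 to 0.70, adjusted p = 0.660). Controls reached lower than any mutant, while the upper ends met. Mis12 shares 231 exonic bases with Derl2 on the opposite strand, and no source used here says if counting was by strand, so its level is less certain. Dsn1, of the same complex, lay between 18.5 and 33.0 FPKM in controls (median 22.2) and between 19.6 and 30.04 FPKM in mutants (median 20.4). Its log2 difference was 0.00 (-0.00440, SE 0.17, limma, adjusted p = 0.996).

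Nsl1 was the lowest of the 9 genes, between 3.80 and 6.27 FPKM in controls and between 4.87 and 5.55 FPKM in mutants, all 5 of which lay inside the control range (log2 difference 0.11, SE 0.12, adjusted p = 0.819). Pmf1 lay at 37.2, 39.5, 35.4, 41.6 and 37.7 FPKM in controls and at 36.2, 43.1, 41.8, 38.7 and 32.4 FPKM in mutants. Its means were 38.3 ± 2.35 and 38.4 ± 4.34 FPKM (SD, n = 5), with a 95% interval of the log2 difference from -0.22 to 0.22 (adjusted p = 0.999). Pmf1 was the partner with the narrowest interval.

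Zwint lay at 64.1, 51.7, 60.5, 58.7 and 82.8 FPKM in controls 1 to 5 and at 71.9, 74.7, 71.8, 76.7 and 89.8 FPKM in mutants 1 to 5. All mutants stood above controls 1 to 4, and control 5, the control of the second library set, stood above 4 of the 5 mutants. The log2 difference was 0.28 (SE 0.13, 95% interval 0.01 to 0.56) and did not pass with adjustment (limma across all genes, adjusted p = 0.566). With a term for the library set it became 0.22 (SE 0.09, adjusted p = 0.350).

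**Figure D4:**
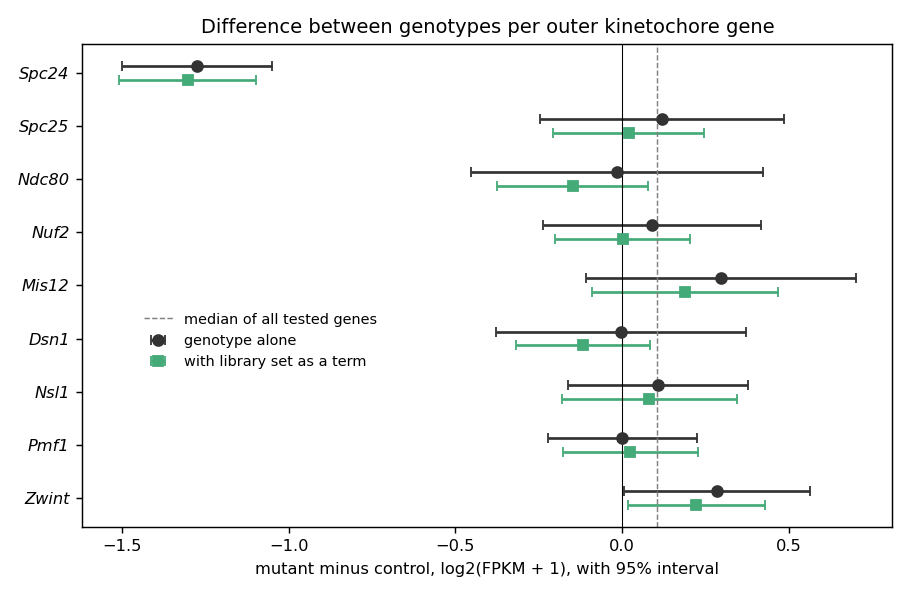
Mutant minus control difference of each gene on the log2(FPKM + 1) scale with its 95% interval, from the fit with genotype alone (circles) and from the fit that includes the library set (squares); the dashed line is the median of all tested genes, 0.11. With genotype alone Spc24 lies at -1.28 and the 8 partners between -0.02 and 0.30. With the library set included Spc24 lies at -1.30 and the partners between -0.15 (Ndc80) and 0.22 (Zwint). Both Spc24 intervals rest on the values that chose the gene and are no test.

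With a term for the library set, 0.547% of all tested genes passed (0.325% higher, 0.222% lower) and 0 of the 8 partners. The term narrowed several intervals: that of Ndc80 ran from -0.37 to 0.08 around -0.15, that of Dsn1 from -0.32 to 0.08 around -0.12, and that of Spc25 from -0.21 to 0.25 around 0.02. Adjusted p for the partners ran from 0.350 for Zwint to 0.998 for Nuf2 (limma). In the first set alone 0.747% of tested genes passed (0.606% higher, 0.141% lower), and 0 of the 8 partners.

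In controls the order by mean level was Spc25, Zwint, Nuf2, Pmf1, Spc24, Ndc80, Dsn1, Mis12 and Nsl1. Neighbours in this order overlapped in range, apart from Pmf1 above Spc24 (35.4 against 35.2 FPKM at the nearest) and Dsn1 above Mis12 (18.5 against 13.1 FPKM). Spc24 was thus close to Ndc80 in controls and above it in 4 of 5 libraries. In mutants Spc24 stood seventh, below Dsn1 without overlap (19.6 against 14.2 FPKM at the nearest) and next to Mis12, above which it lay in 4 of 5 libraries.

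The libraries differed in the level of mitotic genes as a whole, and most partners followed it. A reference of 25 mitotic genes outside the kinetochore, such as the cyclin gene Ccnb1 and the spindle motor gene Kif11, had a mean log2(FPKM + 1) of 4.96 to 5.69 in controls and 5.16 to 5.58 in mutants, with 0 of 25 called. By library set, this mean was 4.96 to 5.34 in the first set and 5.52 to 5.69 in the second. Spc25, Ndc80, Nuf2, Mis12, Dsn1 and Zwint lay higher in each of the 3 libraries of the second set than in any of the 7 of the first. The same held for 15.5% of all tested genes, and the reverse for 6.28%. In control 5, Ndc80 stood at 1.58 times and Nuf2 at 1.46 times the mean of the other controls. In mutants 4 and 5 they stood on average at 1.62 and 1.31 times the mean of mutants 1 to 3. Spc24 stood at 1.11 and 1.10 times the first set in these comparisons, and Pmf1 below it, at 0.982 and 0.879 times. What set the library sets apart is not given in the labels, and its part in these levels was not tested.

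Measured against the mitotic reference in the same library, Spc24 lay at -0.12, 0.00, -0.14, -0.23 and -0.51 log2 units in controls and at -1.57, -1.41, -1.44, -1.66 and -1.72 in mutants, a difference of -1.36. For the 8 partners the differences between genotypes on this relative scale ran from -0.10 for Ndc80 to 0.21 for Mis12. None passed an exact two-sided permutation test adjusted over the 8 genes. Mis12 came nearest, with -2.04 ± 0.190 for controls against -1.83 ± 0.0963 for mutants (SD, n = 5, exact permutation p = 0.0317, adjusted p = 0.254), followed by Zwint at a difference of 0.20 (exact permutation p = 0.0714, adjusted p = 0.286). The smallest p that 5 against 5 can give is 0.00794. Leaving out 1 library gave a Mis12 difference of 0.13 (without control 2) to 0.25 (without control 5). The exact permutation p was 0.0635 without control 2 (adjusted p = 0.508) and 0.00794 without control 5 (adjusted p = 0.0635).

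Within the first set, the mutants lay under all controls for Ndc80 and Dsn1 on this relative scale, and above all controls for Mis12. Ndc80 ran from -0.38 to -0.28 in controls 1 to 4 and from -0.60 to -0.50 in mutants 1 to 3, a difference of -0.21, and Dsn1 from -0.68 to -0.58 and from -0.87 to -0.75, a difference of -0.17. For both the exact permutation p was 0.0286, the smallest that 4 against 3 libraries can give. The adjusted p over 8 genes was 0.114 for each. Mis12 ran from -2.37 to -1.94 in these controls and from -1.91 to -1.80 in these mutants, a difference of 0.24. Its exact permutation p was 0.0571 and its adjusted p 0.152. The share of all genes that separate in this way was not worked out. In the second set Ndc80 lay at -0.23 in control 5 and at -0.16 and -0.29 in mutants 4 and 5. For the same libraries Dsn1 lay at -0.61, -0.63 and -0.57 and Mis12 at -1.88, -1.93 and -1.69. In none of these genes were the genotypes separated there.

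Once each genotype's mean was subtracted, the remaining deviations of the 10 libraries described how the genes varied together. Pearson's r was 0.97 between Ndc80 and Nuf2, 0.97 between Ndc80 and Dsn1, and 0.94 between Spc25 and Nuf2. With the mean of the mitotic reference, r was 0.97 for Ndc80 and 0.98 for Nuf2. The values of Spc24 were lower, with r of 0.72 with Spc25, 0.76 with Ndc80, 0.75 with Nuf2 and 0.75 with the mitotic mean. Pmf1 went against most of the others (r = -0.18 with Ndc80, -0.44 with Zwint). These values are over 10 libraries that share the set difference, and they carry no test. Within the 7 libraries of the first set, r of Spc24 was 0.79 with Spc25, 0.77 with Ndc80 and 0.86 with Pmf1, and r between Pmf1 and Ndc80 was 0.70, so the sign of that relation rests on the second set. Between Pmf1 and Zwint r was -0.22 there, negative as over all libraries.

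**Figure D5:**
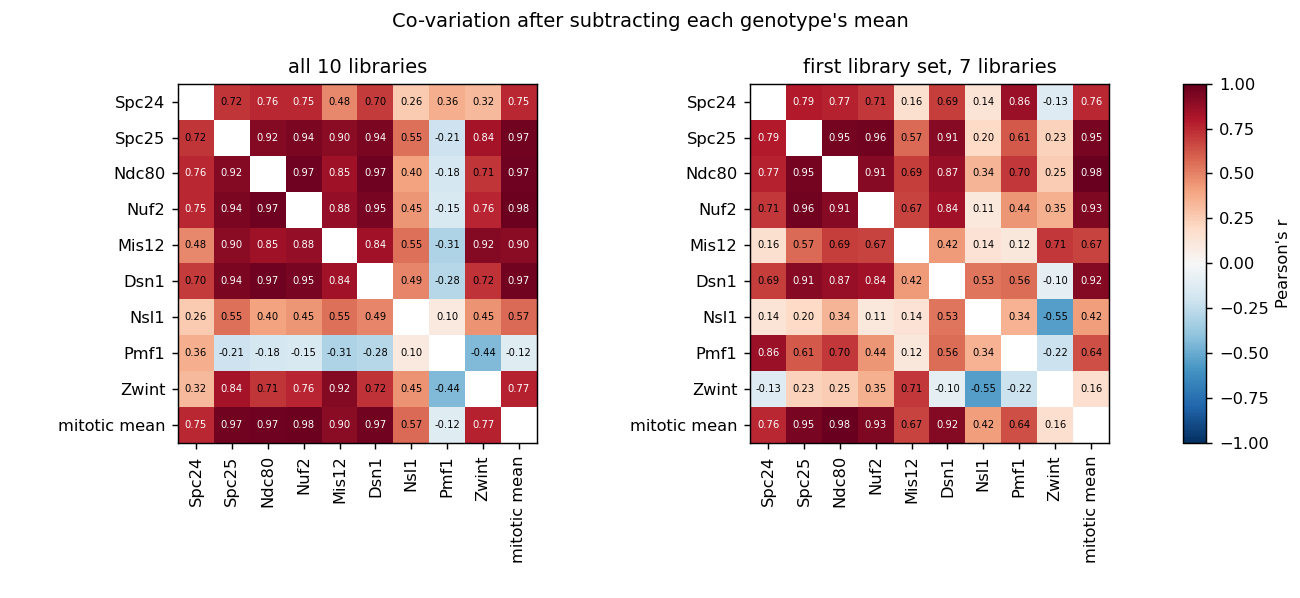
Pearson's r between genes, and with the mean of the mitotic reference, after each genotype's mean was subtracted, for all 10 libraries (left) and the 7 of the first set (right). Spc25, Ndc80, Nuf2 and Dsn1 stay between 0.84 and 0.97 with each other in both panels, while Pmf1 with Ndc80 goes from -0.18 to 0.70.

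The genes whose deviations were most like those of Spc24, among 7768 genes with a mean of at least 5 FPKM, were Mmgt2 (r = 0.95), Mrps36 (0.94), Ndufc1 (0.93), Cdc45 (0.92) and Taf6 (0.92). Their log2 differences between genotypes ran from -0.27 for Mrps36 to 0.20 for Mmgt2, far from that of Spc24. Those most like Ndc80 were Amd1 (0.99), Cyp51 (0.99), Tars (0.99), Supt16 (0.98) and Larp7 (0.98). Dsn1 and Nuf2 stood at places 35 and 49 in that list and Spc24 at place 1865. With 10 libraries in sets that differ in many genes, high values of r are common, and they are given as a description.

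Promoters are shown for 3 partners that varied together over the 10 libraries, because mitotic genes often carry the CCAAT box, to which the factor NF-Y binds. For Mis12, r was 0.90 with Spc25 and 0.85 with Ndc80, but 0.57 and 0.69 within the first set. Over the 10 libraries Nuf2 and Dsn1 varied more closely with Ndc80, at r = 0.97 each. Their promoters are not printed and held no CCAAT in the window described below. The RefSeq table (GRCm38.p6) matched 7 of the 9 genes, all but Spc24 and Nsl1. The last 100 bases before the annotated start are given 5′ to 3′ on the strand of the gene, with CCAAT in either orientation in capitals.
Spc25, chr2:69206214-69206313, minus strand: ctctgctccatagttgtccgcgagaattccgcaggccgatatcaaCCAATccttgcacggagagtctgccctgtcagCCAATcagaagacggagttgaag
Mis12, chr11:71019511-71019610, plus strand: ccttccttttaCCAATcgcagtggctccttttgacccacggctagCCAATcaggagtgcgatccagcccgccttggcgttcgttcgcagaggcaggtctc
Ndc80, chr17:71526858-71526957, minus strand: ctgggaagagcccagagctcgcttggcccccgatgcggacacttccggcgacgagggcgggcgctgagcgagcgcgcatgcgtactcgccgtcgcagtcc

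In the window from 250 bases before to 50 after the start, CCAAT in either orientation occurred 4 times for Mis12, 2 times for Spc25 and Zwint, 1 time for Pmf1 and not for Ndc80, Nuf2 and Dsn1. Among all 32851 promoters listed by RefSeq, 37.4% held it at least 1 time, 11.7% at least 2 times and 1.06% at least 4 times. TTTGAA, the letters of the cell cycle homology region, occurred in either orientation for Spc25, Ndc80 and Pmf1, against 17.9% of all promoters. Spc25, Ndc80 and Nuf2, which varied together, had different numbers of these letters in their windows. Any part of these letters in that variation was not tested. A match is a description of letters and not a site of binding.

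Other kinetochore genes were read from a list. Of 48 listed genes 47 were found by symbol, and all 47 passed the filter. Of these 0 were higher and 0 lower in mutants over all genes tested (limma), beside 0.155% of all tested genes called, a share at which 0 of 47 is what the background gives. With an unadjusted p under 0.05 there was 1, beside 8.76% of all tested genes. Their median log2 difference was 0.06, with a range from -0.24 to 0.27, beside 0.11 for all tested genes.

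Among 17 genes of the inner kinetochore, the part that sits on centromeric chromatin, Cenpp had the smallest p, with 25.5 ± 2.30 FPKM for controls against 21.4 ± 0.947 FPKM for mutants (SD, n = 5, log2 difference -0.24, limma, adjusted p = 0.500), followed by Cenpt, a receptor of the Ndc80 complex, at 11.7 and 13.3 FPKM (adjusted p = 0.675). Among 12 outer kinetochore and microtubule coupling genes, Ska1, whose complex works with Ndc80 on microtubules, lay at 8.95 and 7.73 FPKM and Kntc1, of the Rod-Zw10-Zwilch complex, at 6.67 and 8.0005 FPKM. Among 9 spindle checkpoint genes Bub3 lay at 28.6 and 32.8 FPKM and Mad2l1bp at 5.91 and 6.98 FPKM. Among 5 genes of the Aurora B complex and the shugoshins Birc5 lay at 31.3 and 36.8 FPKM and Sgol1 at 18.05 and 19.1 FPKM. Among 4 genes that load the centromeric histone Cenpa, Mis18a lay at 29.6 and 27.8 FPKM, the first value being the control mean in each case. Adjusted p for the genes named after Cenpt ran from 0.628 to 0.910 (limma).

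Markers of other cells in the tissue moved as follows beside the Spc24 difference. No marker list had a member past the threshold, and no listed marker was at 0 in every library. The summed level of 10 neuron markers was 303 to 482 FPKM in controls and 383 to 574 FPKM in mutants, with 10 of 10 log2 differences above 0, a median of 0.40 and 4 with an unadjusted p under 0.05. That of 7 microglia and macrophage markers was 19.9 to 47.1 and 30.2 to 95.4 FPKM, with 7 of 7 above 0, a median of 0.68 and 3 with an unadjusted p under 0.05. Over all tested genes the median was 0.11 and 8.76% had such a p. Medians also lay above 0.11 for erythroid (0.39, 5 of 6 above 0), endothelial (0.18, 6 of 6) and mesenchymal and meningeal markers (0.23, 7 of 8). For choroid plexus and hem markers the median was -0.06 (2 of 6 above 0). By library set, neuron markers summed to 303 to 574 FPKM in the first and 329 to 406 FPKM in the second. Microglia and macrophage markers summed to 22.9 to 95.4 and 19.9 to 36.9 FPKM. The 8 erythroid markers, of which 6 passed the filter and Klf1 was under 1 FPKM throughout, summed to 3506 to 8503 FPKM in controls and 4434 to 9046 FPKM in mutants, the 6 endothelial markers to 24.1 to 40.7 and 29.6 to 49.0 FPKM, and the 8 mesenchymal and meningeal markers to 60.8 to 148 and 76.9 to 183 FPKM. The 9 ventral telencephalon markers, of which 1 passed the filter, summed to 1.99 to 47.8 FPKM in controls, with control 4 highest, and 1.35 to 16.4 FPKM in mutants, and the 6 choroid plexus and hem markers to 181 to 383 and 143 to 363 FPKM. The summed levels of all these marker lists overlap between the genotypes, and the part of these cells in the Spc24 difference was not tested. The summed level of the 25 mitotic genes, 1127 to 1930 FPKM in controls and 1283 to 1775 FPKM in mutants, and of the 22 S phase genes, 1154 to 1669 and 1144 to 1569 FPKM, overlapped as well.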

How the data were processed

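For each library the authors deposited the FPKM of every gene symbol. Per the submitters' processing notes, reads were aligned with HISAT2 to mm10 (GRCm38). No source used here names the program or annotation behind the FPKM, or says if strand was used. Per the labels' protocols the stranded kit followed Ribo-Zero depletion.

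The test was limma 3.58.1 (R 4.3.3, trend and robust moderation, genotype as the single term) on log2(FPKM + 1) for genes reaching 1 FPKM in 5 or more libraries. Levels relative to the 25 mitotic genes were compared by exact permutation. The limma fit was tested on simulated data and the permutation test checked against another implementation. The second library set was defined as Rnu12 of at least 100 FPKM. Introns were read from GENCODE M21 transcripts and promoters from RefSeq. Python 3.11.15 and pandas 2.3.3 made the tables.

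The genes, the lists, the library sets and the naming rule were chosen with earlier results of these data known. The rule named the 9 genes, for each other kinetochore list without a call its 2 genes of smallest p, and the 5 genes most like Spc24 and Ndc80. Sgol2a was not analysed here, and 1 gene that the rule names is not reported here.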

Additional observations from a re-analysis of the deposited data

Results flagged for a closer look

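In 18 groups of 5 libraries (9 genes in each genotype) 2 values stood apart from the rest of their group, where chance gives about 1 in 20 groups. Spc24 in control 3, at 27.2 FPKM, lay under the other controls (33.0 to 35.2 FPKM), and it was still above every mutant. Zwint in mutant 5, at 89.8 FPKM, lay above the other mutants (71.8 to 76.7 FPKM). Mutant 5 is of the second library set, and the part of the set in that value was not tested.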

How the results depend on the processing

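Of the 8 partners and the other 47 kinetochore genes 0 were called under all 18 alternatives. These were another pseudocount, no filter, a pair of rescalings, the library set as a term, the first set alone, the replicate block, plain limma and leaving out each library. The Spc24 log2 difference, which chose the gene, ran from -1.39 to -1.23 over them. Partners near 0 changed sign. With rescaling to a common median ratio, which brought the median of all genes from 0.11 to 0.00164, Spc25 lay at -0.00225, Nuf2 at -0.0312 and Pmf1 at -0.12. With quantile normalization Nsl1 lay at -0.0214 and Pmf1 at -0.0792. Leaving out 1 library gave -0.14 to 0.12 for Ndc80, -0.0887 to 0.11 for Dsn1 and -0.0418 to 0.0593 for Pmf1. It gave 0.17 (without control 2) to 0.44 (without control 5) for Mis12, 0.02 (without control 3) to 0.25 (without control 5) for Spc25 and 0.01 (without control 3) to 0.20 (without control 5) for Nuf2. Relative to mitotic genes, leaving out 1 library gave -0.0406 to 0.10 for Nsl1, -0.0109 to 0.0271 for Nuf2, -0.00211 to 0.0581 for Spc25 and -0.20 to 0.0184 for Pmf1. Against the S phase genes Dsn1 lay at 0.00337 and Pmf1 at 0.00841, and in the first set Nuf2 at -0.00786 and Pmf1 at 0.0140. Ndc80 and Dsn1 lay at -0.21 and -0.17 in the first set, against -0.10 and -0.09 over all libraries (adjusted exact permutation p = 0.114 for each). Mis12 lay at 0.24 in the first set, with an adjusted exact permutation p of 0.152, against 0.21 over all libraries. The cause of these changes was not tested.

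Over all genes tested, 21 passed (12 higher, 9 lower), against 30 (11 and 19) with the median ratio, 35 (13 and 22) with quantile normalization, 74 (44 and 30) with the set term, 101 (82 and 19) in the first set, 11 (6 and 5) with plain limma, 2 with no filter, and 2 to 79 with 1 library left out, the highest without control 5.

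Deviations of same-numbered libraries correlated at -0.11 to 0.52. The best matching mutant had the same number for controls 3 and 5, and another number for controls 1, 2 and 4. Such correlations cannot decide if libraries of the same number were paired. With the number as a replicate block 14 genes passed, against 21 without, and Spc24 lay at -1.28 with the block and without. Exact sign-flip tests over 5 pairs cannot go under p = 0.0625, and exact permutation tests of 4 against 3 libraries cannot go under 0.0286.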

Other observations

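Among the 149 genes with a readable intron start of ATATCCTT or GTATCCTT, a list made after the data were seen, 125 were tested and Spc24 had the lowest log2 difference. That rank rests on the values that chose Spc24, so it is a description and no test. Without Spc24 the list's median was 0.03, beside 0.11 for all tested genes, with 67 of 124 members above 0, 2 called lower and 0 higher (limma), and 31 with an unadjusted p under 0.05. That is 1.61% called lower and 25.0% with such a p, beside 0.0666% and 8.76% of all tested genes. The next lowest member lay at -0.78 and the highest at 0.91. Spc24 was 1 of 8 tested genes with 2 such starts. The other 7, named here after their values were seen, lay between -0.06 and 0.46: Mapk8, a stress-activated kinase gene, had means of 47.96 FPKM (controls) and 66.1 FPKM (mutants) (log2 difference 0.46), Ccdc43 at 23.3 and 29.7 (0.36), Wdfy1 at 7.88 and 9.81 (0.29), Derl2, a gene of protein removal from the endoplasmic reticulum, at 17.3 and 16.5 (-0.06), Paxip1 at 10.1 and 9.90 (-0.01), Slc12a7 at 4.30 and 4.17 (-0.02) and Slc9a7 at 1.26 and 1.22 (-0.02). The letters mark only the start of an intron, and whether the minor spliceosome removes each of these introns was not tested.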
